A study of Mus musculus with 6 samples.

Results

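Pyruvate made by glycolysis enters the mitochondrion through a carrier and is turned into acetyl-CoA by the pyruvate dehydrogenase complex. The transcripts of 9 genes of this step were followed in the liver of LKB1 knockout and wild type mice: Pdha1 and Pdhb (the E1 subunits of the complex), Dlat (the E2 subunit), Pdk1, Pdk2 and Pdk4 (kinases that switch the complex off), Pdp2 (a phosphatase that switches it on), and Mpc1 and Mpc2 (the pyruvate carrier). The genes were taken by symbol, and all 9 were found among the 55450 genes of the deposited table. All 9 passed the filter on low counts.

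The study compared 3 knockout mice (KO), which carried LKB1 fl/fl alleles, with 3 wild type mice (WT, labelled normal), and mice of both groups were injected with AAV8 Cre at 6 weeks of age. LKB1 is a kinase upstream of AMPK, its gene is Stk11, and AAV8 is a viral serotype used to reach hepatocytes. The strain is labelled C57BL/J, and the left lobe was taken at 10 weeks of age, with 1 poly(A) library per mouse. The promoter driving Cre is not given in the sources used here. Whole liver RNA was read, so cells that the virus does not reach contribute to every value, and fewer cells of a type cannot be told apart from less RNA per cell.

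Pyruvate dehydrogenase commits carbon to oxidation or fat synthesis, whereas pyruvate carboxylase directs it to glucose, and the liver shifts between both fates with feeding. The kinases phosphorylate the E1 alpha subunit, which stops the reaction, and the phosphatases remove the phosphate. Pdk4 is best known as a fasting-induced kinase gene under the control of PPAR-alpha, FoxO1 and the coactivator PGC-1 alpha, Pdk1 as a target of hypoxia-inducible factor, and Pdk2 as a widely expressed isoform.

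Total counts ran from 47659122 to 56147667 per library. Stk11 had 11.4 to 22.1 CPM (counts scaled to library size) in KO and 64.2 to 69.7 CPM in WT, a log2 fold change of -2.06 ± 0.247 (SE; edgeR adjusted p = 0.0167), so transcript remained in the KO libraries. The deposited values are whole-gene totals and do not separate the deleted exons. That call was lost in the refits that left out KO 2, KO 3, WT 2 or WT 3 (adjusted p from 0.0607 to 0.104). Replicate 1 of each group had Xist counts (42472 in KO and 29243 in WT) and almost no Y-linked counts, and the other 4 libraries had Y-linked counts. The fold change of each of the 9 genes is therefore given for all 6 libraries, for the 4 libraries with Y-linked counts (2 KO against 2 WT, called the Y set), and for the other pair (1 KO against 1 WT, called the Xist pair, which has no replicate check). Stk11 itself was at 22.1, 14.4 and 11.4 CPM in KO 1 to 3. Its log2 fold change was -2.38 ± 0.148 (SE, edgeR adjusted p = 0.000638) in the Y set, and the Xist pair gave -1.57. Whether the smaller Stk11 difference in the pair had a part in the values below was not tested. Over all 14539 tested genes the median log2 fold change was 0.01.

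Hepatocyte markers (Alb, Apoa1, Ttr, Serpina1c and Cps1, all detected) summed to 21996 to 67155 CPM in KO and 78261 to 116186 CPM in WT. Of these 5 markers 4 were lower in KO, 0 passed the threshold and 3 had an unadjusted p under 0.05 in edgeR, where the share over all genes was 26.3%. Of the 6 endothelial markers, 0 passed the threshold and 5 had an unadjusted p under 0.05, and their sum was 67.2 to 112 CPM in KO and 135 to 185 CPM in WT. The stellate sums were 94.7 to 201 CPM in KO and 158 to 342 CPM in WT, and the macrophage sums were 99.8 to 222 and 138 to 189 CPM. Bile duct sums were 24.8 to 74.2 CPM in KO and 39.5 to 72.7 CPM in WT, and lymphoid sums were 4.33 to 9.45 and 6.4 to 9.46 CPM. Adipocyte sums were 3.59 to 12.2 CPM in KO and 6.09 to 7.02 CPM in WT, and the 5 striated muscle markers, of which Mb was at 0 in every library, summed to at most 0.0986 CPM. Whether these sums had a part in the values below was not tested.

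The kinase genes are the members whose values differed most in direction, so the 250 bases before their RefSeq start sites (GRCm38.p6) are shown first, with capitals marking every match to the motifs searched. The Pdk1 stretch is chr2:71872974-71873223 (plus strand), the Pdk2 stretch chr11:95041372-95041621 (minus strand) and the Pdk4 stretch chr6:5496279-5496528 (minus strand), each read 5′ to 3′ on the gene's strand.
Pdk1: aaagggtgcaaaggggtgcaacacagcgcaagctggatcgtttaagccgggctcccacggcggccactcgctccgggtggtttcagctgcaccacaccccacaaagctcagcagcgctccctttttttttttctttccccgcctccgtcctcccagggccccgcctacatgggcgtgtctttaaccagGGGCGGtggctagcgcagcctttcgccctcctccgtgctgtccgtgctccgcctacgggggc
Pdk2: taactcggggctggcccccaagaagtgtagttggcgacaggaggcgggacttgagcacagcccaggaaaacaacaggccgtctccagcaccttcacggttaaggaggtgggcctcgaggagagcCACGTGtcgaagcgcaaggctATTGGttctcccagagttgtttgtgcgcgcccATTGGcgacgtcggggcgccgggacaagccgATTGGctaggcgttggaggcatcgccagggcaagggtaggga
Pdk4: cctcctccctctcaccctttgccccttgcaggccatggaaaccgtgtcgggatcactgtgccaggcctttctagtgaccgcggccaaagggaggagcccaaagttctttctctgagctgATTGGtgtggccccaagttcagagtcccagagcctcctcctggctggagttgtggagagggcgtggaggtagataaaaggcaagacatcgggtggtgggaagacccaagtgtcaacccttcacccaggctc

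The motifs searched on both strands were the cAMP response element TGACGTCA, its core TGACG, the FoxO element GTAAACA, the estrogen-related receptor element TCAAGGTCA, the direct repeat bound by PPAR-alpha (DR1, by name), the hypoxia core ACGTG, the GC box GGGCGG and the CCAAT box. This core lies inside the full cAMP element. In the Pdk2 stretch the capitals are 3 CCAAT boxes (read as ATTGG) and a hypoxia core that matches on both strands at overlapping positions. The Pdk4 stretch held 1 CCAAT box, and the Pdk1 stretch held 1 GC box and none of the other motifs as spelled above. The hypoxia core was searched only as ACGTG, so the absence of a match does not cover other spellings of it. Across 32851 RefSeq promoter stretches of the same length, 33.9% held a CCAAT box, 16.6% the hypoxia core and 32.7% the GC box. RefSeq lists 12 such stretches for the 9 genes, including a second start site each for Pdk1, Pdk2 and Mpc1. The full cAMP element, the FoxO element, the estrogen-related receptor element and the direct repeat, held by 1.55%, 3.17%, 0.387% and 0.033% of all stretches, were in 0 of these 12. The cAMP core, held by 17.8% of all stretches, was in those of Dlat, Pdhb and Pdp2. Matches describe these letters only.

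Over the 6 libraries the 9 genes split into higher, lower and near-equal levels in KO, and 0 of 9 passed an adjusted p of 0.05 in edgeR's quasi-likelihood test, against 3.37% of all tested genes. limma voom also called 0 of 9 (2.97% of all genes), while DESeq2 called Pdk1 and Pdk2 (15.8% of all genes). At an unadjusted p under 0.05 there were 4 of 9, namely Pdha1, Pdhb, Pdk1 and Pdk2, where the share over all genes was 26.3%. The KO and WT values did not overlap for 3 of 9, namely Pdha1, Pdk1 and Pdk2, which is close to the 32.4% of all genes with no overlap. The median log2 fold change of the 9 genes was 0.33.

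**Figure D1:**
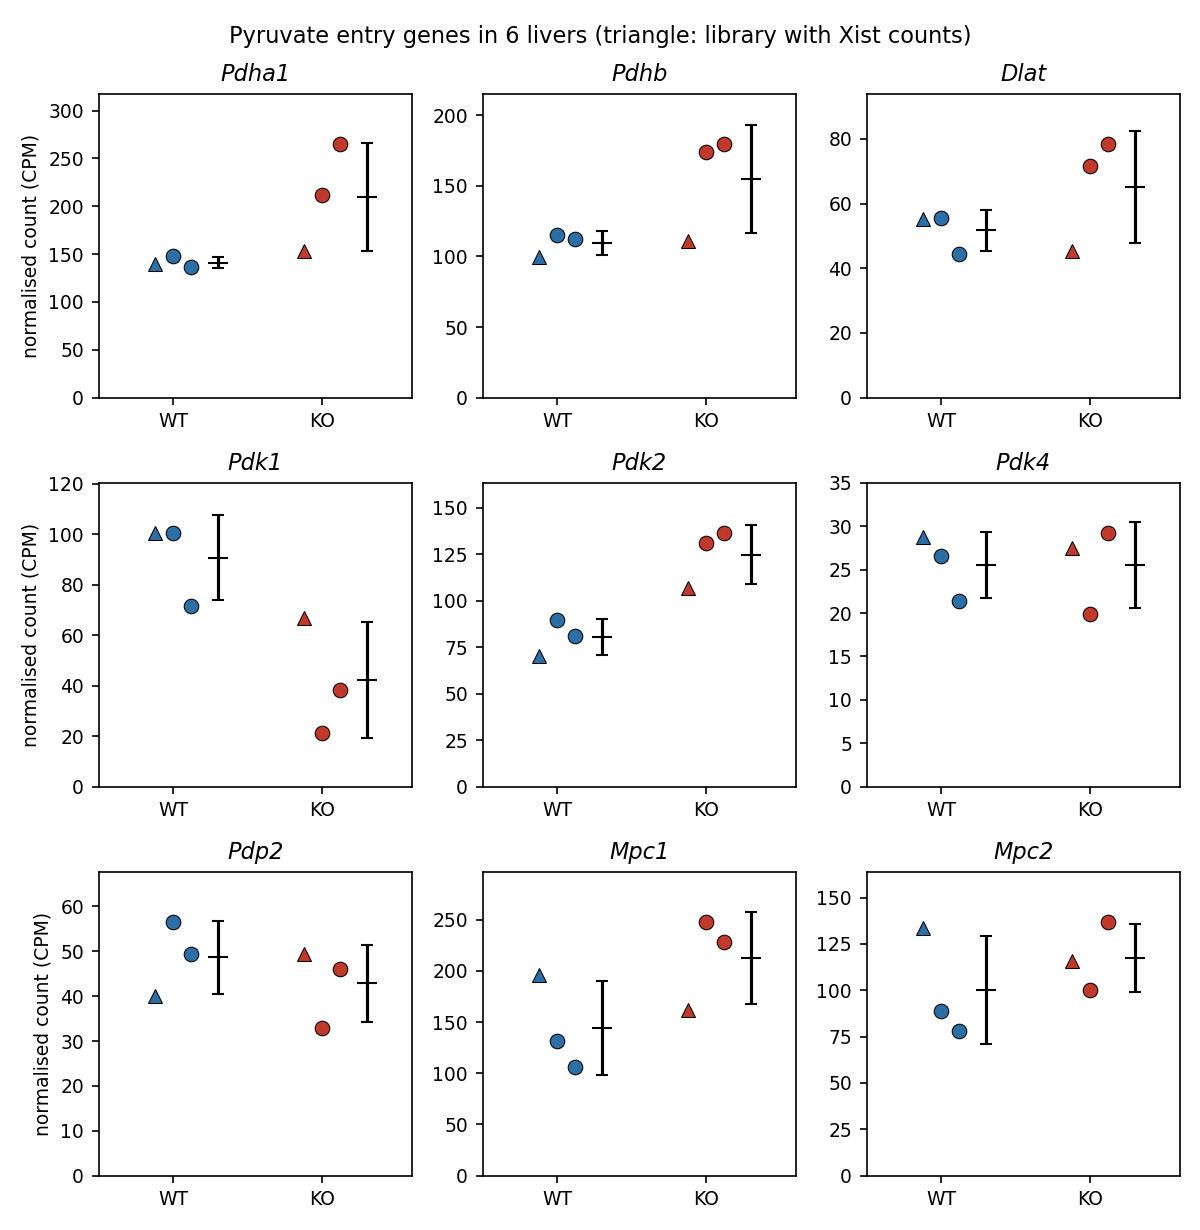
Normalised counts (CPM, linear axis from 0) of the 9 genes in each library, WT in blue and KO in red, with the mean and SD of 3 libraries as a bar beside the points and triangles for the libraries with Xist counts. KO values of Pdk1 lie below, and those of Pdha1 and Pdk2 above, every WT value. KO 1 is the KO library nearest to the WT mean for every gene but Mpc2.

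In the Y set 6 of 9 passed the threshold, against 33.3% of all genes in that fit. Mpc1, Pdha1, Pdk2, Pdhb and Dlat rose (17.2% of all genes rose) and Pdk1 fell (16.1% of all genes fell). The values of 8 of 9 did not overlap between the 2 KO and 2 WT libraries, where the share over all genes was 71.7%, and Pdk4 was the one that overlapped. Leaving out KO 1 alone gave 5 calls of 9 (30.2% of all genes), all but Mpc1 of the former. With the library state as a term over all 6 libraries only Pdk2 was called (10.3% of all genes), and the same gene was the 1 call with upper-quartile scaling (4.02% of all genes, Pdk2 adjusted p = 0.0494).

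**Figure D2:**
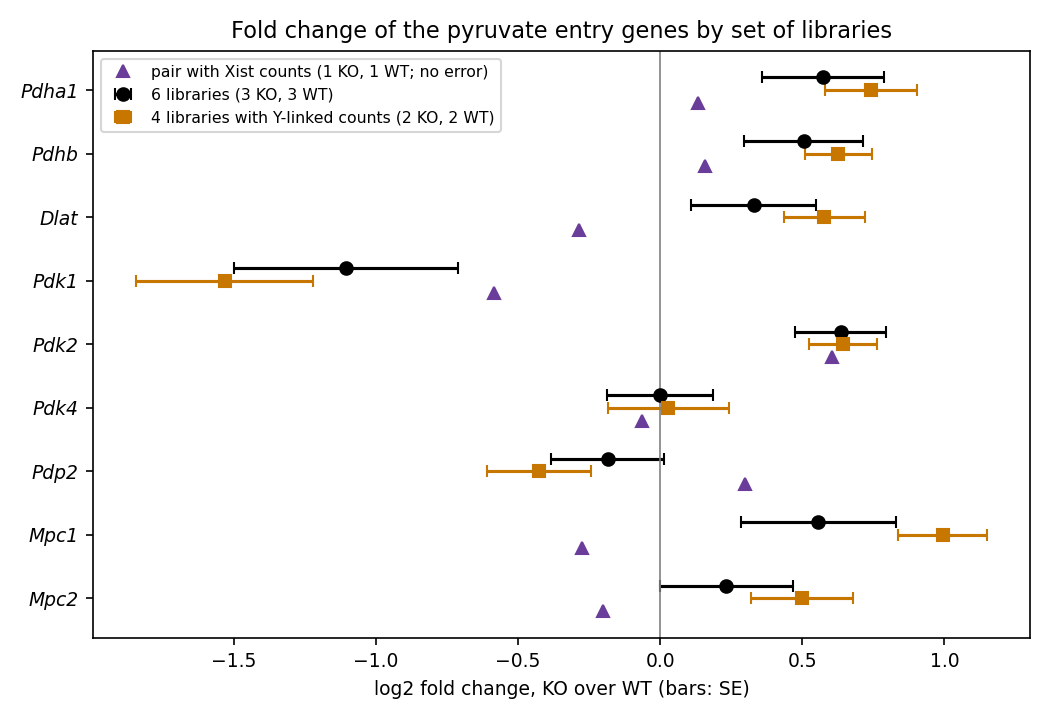
Log2 fold change of KO over WT for each gene in all 6 libraries (circles), in the Y set (squares) and in the Xist pair (triangles), with the SE as bars. Pdk2 has nearly the same value in all 3 sets (0.64, 0.64 and 0.60), whereas Dlat, Mpc1, Mpc2, Pdp2 and, close to 0, Pdk4 lie on opposite sides of 0 in the pair and in the 4 libraries.

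Pdk2 (ENSMUSG00000038967.13, GRCm38 chromosome 11, 95026258 to 95041354, minus strand) came closest to the threshold over all 6 libraries. Its levels were 107, 131 and 136 CPM in KO 1 to 3 and 70.3, 89.8 and 81.1 CPM in WT 1 to 3. Every KO library was above every WT library, with KO 1 the nearest to WT, and the means were 125 ± 15.8 and 80.4 ± 9.77 CPM (SD, n = 3). Its difference on the log2 scale was 0.64 ± 0.159 (SE; edgeR adjusted p over all genes = 0.0735). In the Y set it was 0.64 ± 0.119 (edgeR adjusted p = 0.013). In the Xist pair the log2 ratio was 0.60.

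Pdk1 (ENSMUSG00000006494.11, chromosome 2, 71873224 to 71903858, plus strand) was at 66.9, 21.3 and 38.4 CPM in KO and 100.4, 100.4 and 71.4 CPM in WT. All 3 KO libraries were below all 3 WT libraries, with KO 1 the nearest to WT. Means were 42.2 ± 23.0 and 90.8 ± 16.7 CPM (SD, n = 3). The log2 fold change of -1.11 ± 0.395 (SE) had an adjusted p of 0.141 in edgeR. In the Y set Pdk1 fell by 1.53 ± 0.312 (SE) on the log2 scale (edgeR adjusted p = 0.0174), from 85.9 to 29.8 CPM. The log2 ratio of the Xist pair was -0.59.

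Pdk4 (ENSMUSG00000019577.6, chromosome 6, 5483351 to 5496309, minus strand) was at 27.5, 19.9 and 29.2 CPM in KO and 28.7, 26.6 and 21.3 CPM in WT. The ranges overlapped throughout, with means of 25.5 ± 4.96 and 25.5 ± 3.80 CPM (SD, n = 3). The log2 fold change was -0.00126 ± 0.187 (SE; edgeR adjusted p = 0.998), and it was 0.03 ± 0.213 in the Y set and -0.06 in the pair. Its value lay within its SE of 0, and its sign turned between settings.

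Ratios between genes within a library do not depend on the scaling between libraries. The log2 ratio of Pdk1 to Pdk2 counts was -0.67, -2.62 and -1.83 in KO and 0.52, 0.16 and -0.18 in WT. The groups were separate, with a difference of -1.87 (KO minus WT) and an exact two-sided permutation p of 0.1, the smallest that 3 against 3 allows. This difference was -2.22 in the Y set and -1.19 in the Xist pair. Pdk4 to Pdk2 differed by -0.64 and Pdp2 to Pdk2 by -0.83, also with separate groups and an exact permutation p of 0.1 each. After adjustment over the 6 ratios these 3 values became 0.2, so none could reach 0.05 in this design. All 3 ratios have Pdk2 as their second gene, so they are not independent of each other or of the Pdk2 difference. In the Y set and the Xist pair the differences were -0.63 and -0.67 for Pdk4 to Pdk2. For Pdp2 to Pdk2 they were -1.09 and -0.31.

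Per kilobase of the GENCODE principal transcript, Pdk2 made up 59.1% ± 5.70 of the summed level of the 3 kinase genes in WT and 78.2% ± 8.09 in KO (SD, n = 3). The share of Pdk1 was 28.8% ± 4.14 in WT and 11.5% ± 6.63 in KO, and that of Pdk4 was 12.1% ± 1.65 and 10.3% ± 1.70. The summed kinase level was 56.0 to 67.0 CPM per kb in WT and 68.3 to 76.5 CPM per kb in KO. Pdk2 was the largest share in all 6 libraries. Pdk3, the fourth kinase gene of the family, was under 1 CPM in every library, at 0.13 to 0.34 CPM in KO and 0.42 to 0.77 CPM in WT (log2 fold change -1.07 ± 0.485 SE, edgeR adjusted p = 0.215). Pdk3 had a log2 fold change of -0.83 in the Y set (edgeR adjusted p = 0.272), and the Xist pair gave -1.15.

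**Figure D3:**
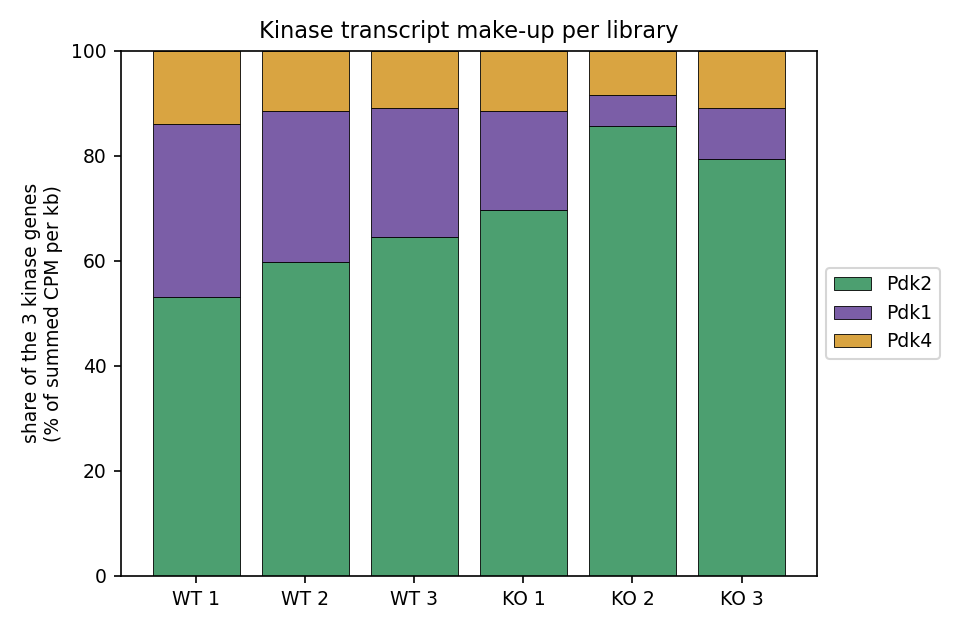
Share of Pdk2, Pdk1 and Pdk4 in the summed kinase level of each library, in percent of CPM per kb of principal transcript, WT 1 to 3 on the left and KO 1 to 3 on the right. Pdk1 takes 24.6% to 32.9% in WT and 6.02% to 18.9% in KO, and Pdk2 takes the most in every library.

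The E1 alpha gene Pdha1 (ENSMUSG00000031299.10, chromosome X, 160122209 to 160138413, minus strand), whose protein carries the sites that the kinases phosphorylate, was at 153, 211 and 265 CPM in KO and 139.5, 148 and 136 CPM in WT. KO 1 was only just above the highest WT library. On the log2 scale KO exceeded WT by 0.57 ± 0.215 (SE; edgeR adjusted p = 0.155) over 6 libraries, and it was 0.74 ± 0.162 (adjusted p = 0.0209) in the Y set. The pair with Xist counts gave a log2 ratio of 0.13. Pdha1 is X-linked, and the WT library with Xist counts lay between the other WT libraries.

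Pdhb (ENSMUSG00000021748.9, chromosome 14, 8165996 to 8173025, minus strand), the E1 beta gene, was at 111, 174 and 179.5 CPM in KO and 99.5, 116 and 113 CPM in WT. KO 1 lay within the WT range and KO 2 and 3 lay above it. Its log2 fold change was 0.50 ± 0.209 (SE; edgeR adjusted p = 0.185), with 0.63 ± 0.118 (adjusted p = 0.0135) in the Y set and 0.16 in the pair. The log2 ratio of Pdha1 to Pdhb counts was 0.43 ± 0.144 in KO and 0.37 ± 0.109 in WT (SD, n = 3), a difference of 0.06 (exact permutation p = 0.7). That difference was smaller than the spread within either group.

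Dlat (ENSMUSG00000000168.9, chromosome 9, 50634633 to 50659780, minus strand) encodes the acetyl-transferring core of the complex. It was at 45.4, 71.5 and 78.4 CPM in KO and 55.4, 55.6 and 44.5 CPM in WT, so KO 1 fell among the WT values and KO 2 and 3 were above them. For Dlat the difference on the log2 scale was 0.33 ± 0.22 (SE; edgeR adjusted p = 0.378). In the Y set it was 0.58 ± 0.142 (adjusted p = 0.0297), and in the Xist pair -0.29. The log2 ratio of kinase counts to E1 counts was -0.39, -1.16 and -1.12 in KO and -0.26, -0.28 and -0.52 in WT, with overlapping groups (exact permutation p = 0.2, adjusted 0.3). Its KO minus WT difference was -0.54 over 6 libraries, -0.74 in the Y set and -0.13 in the Xist pair. Counts were summed here without regard to length, so the longer Pdk1 transcript (5.185 kb, against 2.246 kb for Pdk2) weighs more than per kilobase.

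Pdp2 (ENSMUSG00000048371.8, chromosome 8, 104591451 to 104599026, plus strand) was at 49.4, 33.0 and 46.1 CPM in KO and 40.1, 56.5 and 49.3 CPM in WT, with overlapping groups. Its log2 fold change was -0.18 ± 0.198 (SE; edgeR adjusted p = 0.582). It was -0.43 ± 0.182 (adjusted p = 0.126) in the Y set and 0.30 in the pair. The other phosphatase gene, Pdp1, had 0.98 to 2.30 CPM over the 6 libraries, chosen for mention after its values were seen.

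Mpc1 (ENSMUSG00000023861.17, chromosome 17, 8282904 to 8297661, plus strand) and Mpc2 (ENSMUSG00000026568.6, chromosome 1, 165460637 to 165481214, plus strand) encode the partner subunits of the carrier. Mpc1 was at 162, 248 and 228 CPM in KO and 196, 131 and 107 CPM in WT. WT 1, the WT library with Xist counts, was above KO 1, whereas WT 2 and 3 were below all KO libraries. Mpc1 had a log2 fold change of 0.56 ± 0.273 (SE; edgeR adjusted p = 0.245). In the Y set it was 0.99 ± 0.156 (adjusted p = 0.00814), the lowest adjusted p of the 9 genes there, and the Xist pair gave -0.27.

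Mpc2 was at 116, 100.2 and 137 CPM in KO and 133, 89.0 and 78.1 CPM in WT. WT 1 was again the highest WT library and lay between the KO values. Mpc2 had a log2 fold change of 0.23 ± 0.234 (SE; edgeR adjusted p = 0.558), with 0.50 ± 0.181 (adjusted p = 0.0849) in the Y set and -0.20 in the pair. The log2 ratio of Mpc1 to Mpc2 was 0.52 ± 0.0629 in WT and 0.84 ± 0.422 in KO (SD, n = 3), with a difference of 0.32 (exact permutation p = 0.3, adjusted 0.36). This KO minus WT difference was 0.52 in the Y set and -0.07 in the Xist pair.

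A test of the difference itself asked whether KO against WT changed with the library state. By edgeR's interaction term 0 of 9 genes passed an adjusted p of 0.05, against 2.9% of all genes, and 2 of 9, Mpc1 and Dlat, had an unadjusted p under 0.05, against 20.9% of all genes. The largest of these terms was -1.27 ± 0.273 (SE, pair minus the 4 libraries) for Mpc1, with an adjusted p of 0.0825. Pdk2 had -0.04 ± 0.205 (adjusted p = 0.923). Each group has 1 library with Xist counts, so the spread in this test comes from the other 4.

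Some member counts share sequence with other genes. The processed pseudogene Mpc1-ps is identical to Mpc1 over 261 nt and was at 12.9 to 17.1 CPM in KO and 8.02 to 15.4 CPM in WT. Adding its counts to Mpc1 left the log2 fold change at 0.55 (adjusted p = 0.248). Gm6123 is 97.0% identical to Pdhb over 1079 nt and had at most 0.288 CPM, and Map3k15 shares 426 nt with Pdha1 and had at most 1.32 CPM. Gm8219, 95.9% identical to Mpc1 over 242 nt, was at 0 in every library.

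On a scale per kilobase of principal transcript the carrier genes were the most abundant in WT, at 151 ± 48.1 (Mpc1) and 97.7 ± 28.6 (Mpc2) CPM per kb (SD, n = 3). Pdhb followed at 72.2 ± 5.65, Pdha1 at 49.5 ± 2.08, Pdk2 at 35.8 ± 4.35, Pdk1 at 17.5 ± 3.23, Dlat at 12.8 ± 1.57, Pdp2 at 8.55 ± 1.44 and Pdk4 at 7.33 ± 1.09 CPM per kb. Neighbours in this order whose means differed by less than their summed SDs were Mpc1 and Mpc2, Mpc2 and Pdhb, Pdk1 and Dlat, and Pdp2 and Pdk4. In KO the level per kb of Pdk1 was 8.13 ± 4.44, which put it beside Pdp2 (7.52 ± 1.52) and Pdk4 (7.33 ± 1.42). With the union of all annotated exons as length, Mpc2 was at 13.6 CPM per kb in WT, below Pdk2 at 25.4, and Pdha1 at 37.8 was above Pdhb at 28.3, so the order of these genes depends on the length used.

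Around these 9 genes, 56 genes in 6 lists were read from the same fit, and 54 were tested. Of these 5 passed the threshold, all higher in KO, where 2.15% of all genes were called as higher, and 0 were called as lower. Their median log2 fold change was 0.20. In the Y set 20 of 54 rose and 9 fell, against 17.2% and 16.1% of all genes, so the number that fell was near the share over all genes. The other genes of the complex and its regulators (5 of 6 tested, as Pdha2 had no counts) had 0 calls. Among them Dld, the E3 subunit shared with the other 2-oxo acid dehydrogenases, had 212 ± 54.8 CPM in KO and 143 ± 13.0 CPM in WT (SD, n = 3; log2 fold change 0.57 ± 0.222 SE, edgeR adjusted p = 0.164). Dld rose by 0.79 ± 0.15 in the Y set (SE, log2; edgeR adjusted p = 0.0141), and the Xist pair gave 0.02.

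Of 18 tested genes that make or use pyruvate or its products, 2 rose (2.15% of all genes rose), both of which encode enzymes that release pyruvate from amino acids. Gpt2, the mitochondrial alanine aminotransferase, rose from 266 ± 53.9 to 873 ± 264 CPM (SD, n = 3; edgeR adjusted p = 0.0331). Sds, serine dehydratase, rose from 89.8 ± 32.0 to 534 ± 238 CPM (edgeR adjusted p = 0.0346). A few further genes, Pcx, Ldha and Acly, were chosen after their values were seen. Pcx, pyruvate carboxylase, was at 471 ± 28.0 CPM in KO and 453 ± 46.5 CPM in WT (edgeR adjusted p = 0.855). Ldha, lactate dehydrogenase A, was at 465 ± 191 and 637 ± 71.7 CPM (adjusted p = 0.394), and Acly, which makes cytosolic acetyl-CoA from citrate, was at 693 ± 241 and 277 ± 26.5 CPM (adjusted p = 0.0507). The Y set gave log2 fold changes of 1.77 for Gpt2 and 3.22 for Sds (edgeR adjusted p = 0.00427 and 0.00051), and 0.01 for Pcx, -0.71 for Ldha and 1.45 for Acly (adjusted p = 0.957, 0.08 and 0.0228). The Xist pair gave 1.53, 1.06, 0.13, -0.12 and 1.05 for these 5 genes in the same order. Over the whole list 6 of 18 genes rose and 5 fell in the Y set, against 17.2% and 16.1% of all genes. Those that fell were Pklr, Ldhd, Me1, Slc25a1 and Acss2.

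The list for the sister complexes that act on other 2-oxo acids had a median log2 fold change of 0.80 over 8 genes. It had 1 call, higher, against 2.15% of all genes. The list includes a kinase gene, Bckdk, and a phosphatase gene, Ppm1k, besides the subunits. In 6 of 8 every KO value was above every WT value, where 32.4% of all genes had no overlap in either direction. Bckdk and Ppm1k were those that overlapped, with log2 fold changes of 0.06 and -0.01. Dhtkd1, the E1 subunit for 2-oxoadipate, rose from 44.2 ± 4.53 to 79.0 ± 12.3 CPM (SD, n = 3), which is 0.84 ± 0.155 on the log2 scale (SE; edgeR adjusted p = 0.0431). Dlst and Dbt, the E2 subunits for 2-oxoglutarate and branched-chain acids and so the counterparts of Dlat, were chosen after their values were seen. They had log2 fold changes of 1.01 ± 0.257 and 1.12 ± 0.256 (edgeR adjusted p = 0.0755 and 0.0635). Dhtkd1, Dlst and Dbt rose by 0.83, 1.15 and 1.26 on the log2 scale in the Y set (edgeR adjusted p = 0.0228, 0.00484 and 0.00311), and the Xist pair gave 0.84, 0.58 and 0.67. Over the whole list 5 of 8 genes rose and 1 fell in the Y set, against 17.2% and 16.1% of all genes. Ppm1k was the one that fell, with a log2 fold change of -0.57 (edgeR adjusted p = 0.0375), and the Xist pair gave 0.73.

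Of 12 genes for known regulators of the kinase genes 2 rose and 0 fell over 6 libraries (2.15% of all genes rose), and 4 rose and 2 fell in the Y set (17.2% and 16.1% of all genes). Ppargc1a, which encodes PGC-1 alpha, rose from 7.44 ± 4.27 to 58.8 ± 29.5 CPM (SD, n = 3; edgeR adjusted p = 0.0446), and Esrra, an orphan nuclear receptor that works with it, rose from 16.1 ± 1.64 to 46.5 ± 18.7 CPM (adjusted p = 0.048). Ppara, chosen after its values were seen, was at 65.1, 19.3 and 30.5 CPM in KO and 95.4, 98.5 and 78.3 CPM in WT (adjusted p = 0.125). Ppara and Nr3c1, the glucocorticoid receptor gene, were those that fell in the Y set, by 1.83 and 0.58 on the log2 scale (edgeR adjusted p = 0.00527 and 0.0128), and the Xist pair gave -0.55 and -0.46. For Ppargc1a and Esrra the Y set gave 3.91 and 1.72 (edgeR adjusted p = 0.000328 and 0.00184) and the Xist pair 1.00 and 0.91. Foxo1 and Irs2, named after their values were seen, were the others that rose in the Y set. They rose by 0.86 and 1.43 on the log2 scale (edgeR adjusted p = 0.00589 and 0.00316), and the Xist pair gave -0.27 and 0.50. Pdk4 levels overlapped between the groups in these same libraries, as given above. The calls of Gpt2, Sds, Dhtkd1 and Esrra were lost in each refit without KO 2, KO 3, WT 1, WT 2 or WT 3, and that of Ppargc1a in the same refits except the one without WT 1. The call of Esrra was also lost in limma voom (adjusted p = 0.0577) and with a mean CPM of at least 1 as the filter (adjusted p = 0.05004).

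The 5 lipoate attachment genes, which fit the complex's E2 cofactor, had 0 calls and log2 fold changes from -0.17 to 0.26. Fdx1l and Lipt1 had the smallest adjusted p of them, 0.378 and 0.55 in edgeR. Fdx1l rose by 0.42 on the log2 scale in the Y set (edgeR adjusted p = 0.0421) and Lipt1 had -0.22 (adjusted p = 0.334), and the Xist pair gave -0.13 and -0.05. The 6 genes for matrix calcium and magnesium handling also had 0 calls, with a median log2 fold change of 0.23. Micu2, a regulator of the mitochondrial calcium uniporter, was at 70.1 ± 11.8 CPM in KO and 43.5 ± 6.71 CPM in WT (SD, n = 3; edgeR adjusted p = 0.0767). Micu2 rose by 0.69 on the log2 scale in the Y set (edgeR adjusted p = 0.0105), and the Xist pair gave 0.67. Over this list of 6 genes 3 rose and 1 fell in the Y set, against 17.2% and 16.1% of all genes. Slc8b1 was the one that fell, with a log2 fold change of -0.71 (edgeR adjusted p = 0.0277), and the Xist pair gave 0.25.

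**Figure D4:**
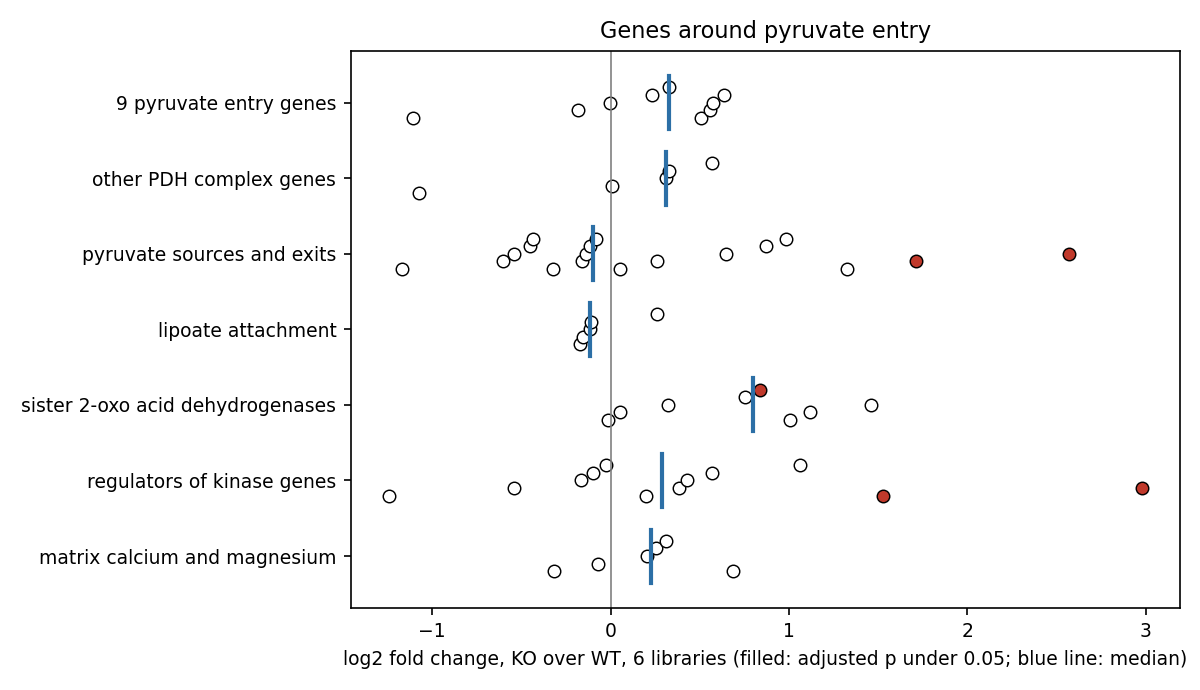
Log2 fold change of KO over WT in 6 libraries for the 9 pyruvate entry genes and the 54 tested genes of the 6 lists, 1 point per gene, with filled points for an adjusted p under 0.05 and a blue line at each median. The filled points are Gpt2, Sds, Dhtkd1, Ppargc1a and Esrra, and 0 of the 9 pyruvate entry genes are filled.

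The genes whose levels followed Pdk2 most closely across the 6 libraries, by Pearson correlation of log2 CPM among 11974 other genes with a mean of at least 1 CPM, were Sgpp1 (r = 0.999), Bckdha (r = 0.994) and Klc4 (r = 0.993). This is a description over 6 libraries that also differ by group, and 360 genes had a correlation of at least 0.95. Sgpp1 was at 101 ± 14.6 CPM in KO and 62.9 ± 9.11 CPM in WT, Bckdha at 272 ± 18.9 and 217 ± 15.2 CPM, and Klc4 at 69.8 ± 5.86 and 49.3 ± 3.89 CPM (SD, n = 3). Their edgeR adjusted p-values were 0.0741, 0.215 and 0.0725.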

How the data were processed

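Poly(A) RNA sequencing of mouse liver gave 6 libraries, 3 KO and 3 WT, grouped by sample title. The authors deposited a table of expected counts per gene (rounded here), of which 4.93% to 5.47% per library were not whole. Per the submitters' processing notes the tools were bcl2fastq 2.17, cutadapt 1.18, STAR 2.7.0f and RSEM 1.3.1, and the genome build was mm9. All 55450 versioned gene identifiers were found in GENCODE M21 (GRCm38), from which positions and lengths were taken. Whether the counting used strand is not given in the sources used here, so overlapping genes are uncertain.

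Genes were filtered with filterByExpr of edgeR 4.0.16 (R 4.3.3), scaled by TMM and tested with edgeR's quasi-likelihood test, with p-values adjusted by Benjamini-Hochberg over 14539 genes and a threshold of 0.05. The SE is the log2 fold change divided by the root of F. Ratios used a prior count of 2, and log2 ratios of the pair an offset of 0.1 CPM. DESeq2 1.42.0, limma 3.58.1, other scalings and filters, a replicate block and refits without single libraries were alternatives. The test was also tried on simulated counts, whose means and dispersions came from the main fit. Transcript matches of at least 95% over 200 nt were found with BLAST 2.17.0.

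The members and lists were chosen with earlier results of these data known. Named genes are Stk11, the members, list genes past the threshold (otherwise the 2 with the smallest adjusted p per list) and the 3 genes most like Pdk2. A single gene that this rule names is not reported here. Fdx2 was read under its older symbol Fdx1l. A floor of 3 counts corresponds to 0.0515 to 0.0641 CPM. Per the labels the libraries are separate mice.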

Additional observations from a re-analysis of the deposited data

Results flagged for a closer look

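For Sds and Ppargc1a, genes of the surrounding lists, the difference between KO and WT was not the same in the Xist pair as in the Y set, by edgeR's interaction test. The log2 fold change of Sds was lower in the pair by -2.16 ± 0.28 (SE, pair minus the 4 libraries; adjusted p = 0.0234), at 1.06 in the pair and 3.22 in the 4 libraries. For Ppargc1a the term was -2.91 ± 0.267 (adjusted p = 0.0103), with 1.00 in the pair and 3.91 in the 4 libraries. Sds and Ppargc1a were higher in KO in each set, and the pair is 1 library against 1. Of the 54 tested list genes 3 passed this test, against 2.9% of all genes. Besides Sds and Ppargc1a this was Ldhd, a D-lactate dehydrogenase gene chosen after its values were seen. Its term was 1.32 ± 0.222 (adjusted p = 0.0472), with 0.36 in the pair and -0.97 in the 4 libraries, so its sign differed between the sets. None of the 9 pyruvate entry genes passed this test.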

How the results depend on the processing

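Pdk1 was lower and Pdk2, Pdha1 and Pdhb were higher in KO under all 19 alternatives. Among the 9 genes the number called was 1 with upper-quartile factors, 1 with the library state as a term, 2 in DESeq2, 6 in the Y set, both alone and in a fit of group by state, and 0 to 5 when 1 library was left out. Over all genes the count was 490, and it was 771 with no filter, 105 with the replicate block, 1504 with the state as a term, 2290 in DESeq2, 4847 and 4767 in the Y set (alone and in the group by state fit), 121 for the Xist pair in that fit, and 6 (without WT 2) to 4473 (without KO 1) when 1 library was left out. Of the 54 list genes 5 were called, against 8 with library totals alone, 0 with the replicate block, 12 with the state as a term, 17 in DESeq2, 29 in the Y set in both fits, 0 for the pair, and 0 to 28 when 1 library was left out. The median log2 fold change of the 9 genes was 0.33, and it was 0.58 in the Y set in both fits and -0.0638 for the pair. The pair also turned the sign of Dlat (-0.29), Mpc1 (-0.27), Mpc2 (-0.20), Pdp2 (0.30) and Fdx1l (-0.13). Pdk4 turned positive with library totals alone (0.0305), in the Y set (0.0288 alone and 0.0337 in the group by state fit) and with the state as a term (0.00176), and ran from -0.12 to 0.16 when 1 library was left out. The ratio of Pdha1 to Pdhb ran from -0.00208 to 0.14 in such refits. The cause of these shifts was not tested, and fewer libraries enter the refits. The block uses replicate numbers of different mice, whose same-numbered deviations correlated at 0.18, 0.04 and 0.07, so the numbers were not taken as pairs. It changed no call among the 9 genes, and Pdk2 had an adjusted p of 0.0952 with it. The sum of Mpc1 and Mpc1-ps was added after the data were seen. The members had 998 to 13752 counts per library, so counting error is small beside the spread between mice.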
